A study of Homo sapiens with 6 samples.

Results

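Store-operated calcium entry genes were followed in K562 cells, an established line derived from chronic myeloid leukaemia, after overexpression of STIM1::MXD3 or MXD3. The 10 genes were chosen by name, through their NCBI Gene identifiers, out of 25702 identifiers in the count tables. They were the calcium sensors STIM1 and STIM2, the channels ORAI1, ORAI2 and ORAI3, the inhibitor SARAF, the pumps ATP2A2 and ATP2A3, and the release channels ITPR1 and ITPR3. All 10 were found in each table and all 10 passed the filter on low counts, the lowest count of any of them in a library being 1182.

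K562 cells were nucleofected with a pCMV-HA expression plasmid that was empty (EV), carried MXD3, or carried the fusion STIM1::MXD3, so that the plasmid backbone and the transfection were common to all 3 groups. Each group had 2 libraries from transfections that the study calls independent, numbered replicate 1 and replicate 2 in the labels. MXD3 represses transcription within the MYC, MAX and MXD network of E-box binding factors. In the fusion, the first exon of STIM1 is joined to MXD3, which loses its amino-terminal repression domain and keeps its DNA-binding domain. Expression came from the CMV promoter of a transiently carried plasmid in a single cell line, and the study gives a transfection efficiency for its K562 protocol in general, not for each of these libraries.

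Store-operated calcium entry refills the calcium store of the endoplasmic reticulum (ER). A signal from the cell surface opens the inositol trisphosphate receptors, encoded by the ITPR genes, and calcium leaves the ER. STIM proteins sit in the ER membrane with a calcium-binding part inside the ER, and on emptying they gather where the ER meets the plasma membrane and open ORAI channels. SARAF slows this process, and the SERCA pumps, encoded by the ATP2A genes, return calcium to the ER. In blood cells the entry of calcium feeds calcineurin and the NFAT transcription factors.

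Libraries held between 53048343 and 63835779 counts, and 15431 genes were tested. Levels are given as CPM, the usual depth-scaled count of RNA sequencing, after scaling of library sizes by the trimmed mean of M-values (TMM). MXD3 stood at 9.33 and 11.7 CPM in EV, 2524 and 2162 CPM with MXD3, and 1975 and 1849 CPM with STIM1::MXD3. This matched the labels of EV against the plasmids that carry MXD3. Since both of those plasmids add MXD3 counts, the MXD3 level alone does not check their labels against each other. The erythroid markers HBE1, GATA1 and KLF1, which K562 cells express, had counts in every library. Of the 15 markers of other cell types, MS4A1, KRT5 and KRT14 were at 0 in every library. EPCAM, at 77.9 to 101 CPM, was the most counted of the others.

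The part of STIM1 that enters the fusion is shown because it decides which reads of the plasmid can be counted as STIM1. In the GRCh37 annotation, STIM1 (Gene ID 6786) lies on the plus strand of chromosome 11 from 3875757 to 4114440. The coding part of its first exon is chr11:3877501-3877639, of 139 bases, which is 6.47% of the 2148 coding bases of the canonical transcript. Below, from the GRCh37 genome and 5′ to 3′, the capitals mark the match of the study's first forward primer for RT-PCR of the fusion.
STIM1 coding exon 1: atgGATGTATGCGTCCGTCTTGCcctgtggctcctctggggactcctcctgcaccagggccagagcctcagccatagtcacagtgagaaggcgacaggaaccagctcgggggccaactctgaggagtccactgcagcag
The exon holds 46 complete codons, and the start of this stretch encodes the signal peptide that sends STIM1 to the ER. The calcium-binding, membrane and ORAI-activating parts of STIM1 are encoded by later exons.

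The study's 4 primers for the fusion transcript were placed on the canonical transcripts of both genes, since they show where the junction was looked for. Both forward primers matched STIM1 exon 1 and both reverse primers matched MXD3 exon 2, on the minus strand of chromosome 5, at chr5:176738414-176738433 for the first and chr5:176738458-176738476 for the second.
STIM1-F: gatgtatgcgtccgtcttgc
STIM1-F2: gcctcagccatagtcacag
MXD3-R: gtcgcttcttcctcctgtgg
MXD3-R2: cacagggacgcataaccat
The forward primers begin at coding bases 4 and 65 of STIM1, and the reverse primers cover coding bases 123 to 142 and 80 to 98 of MXD3. These pairs therefore span the junction, whereas the deposited counts were summed over each whole gene and do not separate the fusion from the cells' own STIM1.

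**Figure D1:**
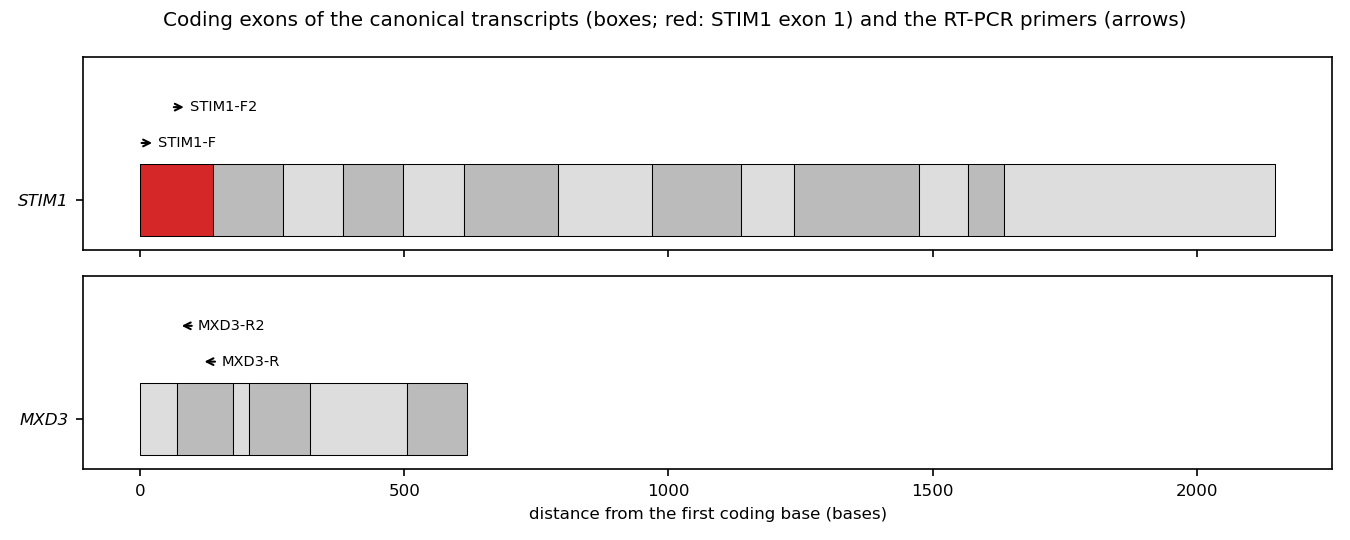
Coding exons of the canonical STIM1 transcript (2148 bases, 13 exons) and MXD3 transcript (618 bases, 6 exons) drawn to scale as boxes against the distance in bases from the first coding base, with the 4 RT-PCR primers as arrows. The red box is the 139-base coding part of STIM1 exon 1, which holds both forward primers.

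STIM1, the main ER calcium sensor, was higher in the libraries with STIM1::MXD3 than in all others. It stood at 205 and 176 CPM in EV, 187 and 159 CPM with MXD3, and 471 and 453 CPM with STIM1::MXD3. The fusion libraries lay above all 4 of the others, and the EV and MXD3 libraries overlapped. Against EV the difference was 2.43-fold, a log2 fold change of 1.28 ± 0.14 (SE, n = 2 each), and against MXD3 it was 2.67-fold, or 1.42 ± 0.14. MXD3 alone gave a log2 fold change of -0.14 ± 0.14 against EV (adjusted p = 0.999, edgeR).

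Whether STIM1 passed the threshold of an adjusted p of 0.05 depended on the fit. In the edgeR quasi-likelihood fit with 1 coefficient per group it did not pass, with adjusted p of 0.359 against EV and 0.381 against MXD3. With the replicate number as a block, the log2 fold changes were 1.29 ± 0.08 and 1.42 ± 0.08 and the adjusted p fell to 4.27e-07 and 1.97e-07. DESeq2 called STIM1 without the block (adjusted p = 5.73e-10 and 1.61e-12) and with it (1.09e-41 and 1.97e-52). Within replicate number 1 the fusion library was 1.20 above the EV library on the log2 scale, and within number 2 it was 1.37 above. Leaving out any 1 library kept the log2 fold change against EV between 1.18 and 1.398, and that against MXD3 between 1.32 and 1.52.

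The STIM1 increase was set beside that of MXD3, as a description with no test. Above the EV mean, the first fusion library gained 281 CPM of STIM1 and 1965 CPM of MXD3. The second gained 263 CPM of STIM1 and 1838 CPM of MXD3. STIM1 therefore gained 14.3% of what MXD3 gained in both libraries, although the gains themselves differed. The exact ends of the plasmid insert were not given in the labels, so the gains are not given per length here. How much of the gain came from the plasmid was not tested.

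The neighbouring genes on chromosome 11 did not share the pattern of STIM1. The nearest tested protein-coding genes were RHOG (3848208 to 3862189), 13568 bases before STIM1, and PGAP2 (3818954 to 3847601) on one side, and RRM1 (4115937 to 4160162), 1497 bases after it, and TRIM21 (4406127 to 4414932) on the other. RHOG stood at 189 and 146 CPM in EV and at 167 and 144 CPM with STIM1::MXD3. RRM1, a subunit of ribonucleotide reductase, stood at 281 and 244 CPM in EV and at 314 and 233 CPM with STIM1::MXD3. In all 4 neighbours the libraries of every pair of groups overlapped, and the log2 fold changes of STIM1::MXD3 against EV lay between -0.10 (RHOG) and 0.13 (TRIM21), each with an adjusted p of 1 (edgeR).

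Among 10250 genes with a mean of at least 5 CPM, those whose log2 CPM followed STIM1 most closely over the 6 libraries were NPM3 (Pearson r = 0.993), INPP5K (0.990), DCAF13 (0.985), RPGRIP1L (0.980) and NUBP2 (0.974). The 6 points are 3 groups of 2 libraries. In each of the 5 genes both fusion libraries were the highest, which largely follows from picking them by likeness to STIM1. Fusion and EV libraries did not overlap, in either direction, in 22% of all genes tested. The range of these genes was narrower than that of STIM1. NPM3 went from 32.5 CPM in an MXD3 library to 37.2 CPM in a fusion library. DCAF13 stood at 67.0 and 63.98 CPM in EV, 64.5 and 62.6 CPM with MXD3, and 77.9 and 74.3 CPM with STIM1::MXD3. No other store-operated calcium entry gene was among the 5.

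STIM2, the second sensor, which responds to smaller losses of ER calcium (Gene ID 57620, chromosome 4, 26859223 to 27027003), did not pass in any plasmid comparison. It stood at 35.7 and 27.2 CPM in EV, 30.4 and 21.0 CPM with MXD3, and 34.3 and 19.2 CPM with STIM1::MXD3. In every group replicate 1 was above replicate 2, and the groups overlapped. The log2 fold change of STIM1::MXD3 against EV was -0.23 ± 0.31 and that of MXD3 against EV was -0.29 ± 0.31 (adjusted p = 1 and 0.999, edgeR). With the block the values were -0.28 ± 0.12 and -0.30 ± 0.12, with adjusted p of 0.558 and 0.280.

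The ORAI channels, which form the pore in the plasma membrane, overlapped between EV and each transfected group. ORAI1, the main pore subunit (Gene ID 84876, chromosome 12, 122064414 to 122081124), stood at 44.1 and 28.2 CPM in EV, 40.3 and 23.5 CPM with MXD3, and 41.4 and 26.6 CPM with STIM1::MXD3. Replicate 1 was above replicate 2 in all 3 groups, and the log2 fold change of STIM1::MXD3 against EV was -0.09 ± 0.34. With the replicate block it was -0.09 ± 0.10 (adjusted p = 0.869, edgeR). ORAI2 (Gene ID 80228, chromosome 7, 102073553 to 102097272) showed the opposite order, with 61.0 and 88.3 CPM in EV, 71.5 and 90.8 CPM with MXD3, and 57.0 and 93.8 CPM with STIM1::MXD3. Its replicate 2 was above its replicate 1 in all 3 groups. The log2 fold change of ORAI2 for STIM1::MXD3 against EV was 0.01 ± 0.28. With the block it was -0.0012 ± 0.10 (adjusted p = 0.997, edgeR).

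ORAI3 (Gene ID 93129, chromosome 16, 30960389 to 30967782), a subunit found in mammals, stood at 54.3 and 42.9 CPM in EV, 50.01 and 47.6 CPM with MXD3, and 51.7 and 55.3 CPM with STIM1::MXD3. Both fusion libraries lay above both MXD3 libraries, with a log2 fold change of 0.13 ± 0.15 (adjusted p = 1, edgeR), and the EV libraries lay on both sides. Its exons share 1397 bases, 52.9% of the annotated exon length, with a long non-coding RNA gene on the same strand that had no row in the count tables.

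SARAF, the inhibitor that promotes inactivation of the channel (Gene ID 51669, chromosome 8, 29920519 to 29940724, minus strand), varied least of the 10 genes over the 6 libraries, with a highest to lowest ratio of 1.13. It stood at 173 and 167 CPM in EV, 165.8 and 166.4 CPM with MXD3, and 183 and 187 CPM with STIM1::MXD3. Both fusion libraries lay above the other 4, and both MXD3 libraries lay below both EV libraries. The gap was narrow, from 166.4 CPM in an MXD3 library to 166.9 CPM in an EV library. MXD3 against EV gave a log2 fold change of -0.03 ± 0.11 (adjusted p = 0.999, edgeR). The log2 fold change of STIM1::MXD3 was 0.12 ± 0.11 against EV and 0.16 ± 0.11 against MXD3 (adjusted p = 1 each, edgeR). With the block these were 0.12 ± 0.08 and 0.16 ± 0.08, with adjusted p of 0.722 and 0.778. SARAF shares 362 exon bases, 12.1% of its exon length, with a long non-coding RNA gene on the opposite strand. That gene had no row in the count tables, and the use of strand in counting was not given.

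ATP2A2, which encodes the widely expressed pump SERCA2 (Gene ID 488, chromosome 12, 110718561 to 110788898), was nearly level between groups. It stood at 497 and 434 CPM in EV, 499 and 441 CPM with MXD3, and 492 and 436 CPM with STIM1::MXD3. The log2 fold change of STIM1::MXD3 against EV was -0.0048 ± 0.14, and that of MXD3 against EV was 0.01 ± 0.14. With the block these were -0.0042 ± 0.08 and 0.01 ± 0.08. With 2 libraries per group, differences within the SE could not be seen, and larger ones could also fail to pass. STIM1 did not pass in the edgeR fit without the block at 1.28 ± 0.14 against EV.

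ATP2A3, which encodes SERCA3, a pump typical of blood cells (Gene ID 489, chromosome 17, 3827164 to 3867758, minus strand), was the most variable member after STIM1. It stood at 269 and 405 CPM in EV, 429 and 507 CPM with MXD3, and 219.8 and 588 CPM with STIM1::MXD3. The fusion libraries held both the lowest and the highest value of the 6, and the MXD3 libraries lay above both EV libraries. MXD3 against EV gave a log2 fold change of 0.47 ± 0.43 (adjusted p = 0.999, edgeR), and with the block it was 0.52 ± 0.17 (adjusted p = 0.186). STIM1::MXD3 against EV gave 0.26 ± 0.43 (adjusted p = 1), which was -0.63 without the second fusion library and 0.80 without the first.

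The release channels ITPR1 and ITPR3, inositol trisphosphate receptors of the ER, also overlapped between EV and the fusion. ITPR1 (Gene ID 3708, chromosome 3, 4535029 to 4889190) stood at 40.0 and 44.2 CPM in EV, 48.0 and 50.4 CPM with MXD3, and 40.6 and 54.6 CPM with STIM1::MXD3. Both MXD3 libraries lay above both EV libraries, with a log2 fold change of 0.23 ± 0.17 (adjusted p = 0.999, edgeR). ITPR3 (Gene ID 3710, chromosome 6, 33588142 to 33664351) stood at 137 and 120.0 CPM in EV, 119.7 and 113 CPM with MXD3, and 120.4 and 116 CPM with STIM1::MXD3. Both of its MXD3 libraries lay below both EV libraries, with a log2 fold change of -0.14 ± 0.12 (adjusted p = 0.999). ITPR3 shares 1025 exon bases, or 10.4% of its exon length, with UQCC2 on the opposite strand, and ORAI2 shares 5.29% with ALKBH4. Since the use of strand in counting was not given, reads in these stretches may belong to either gene.

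**Figure D2:**
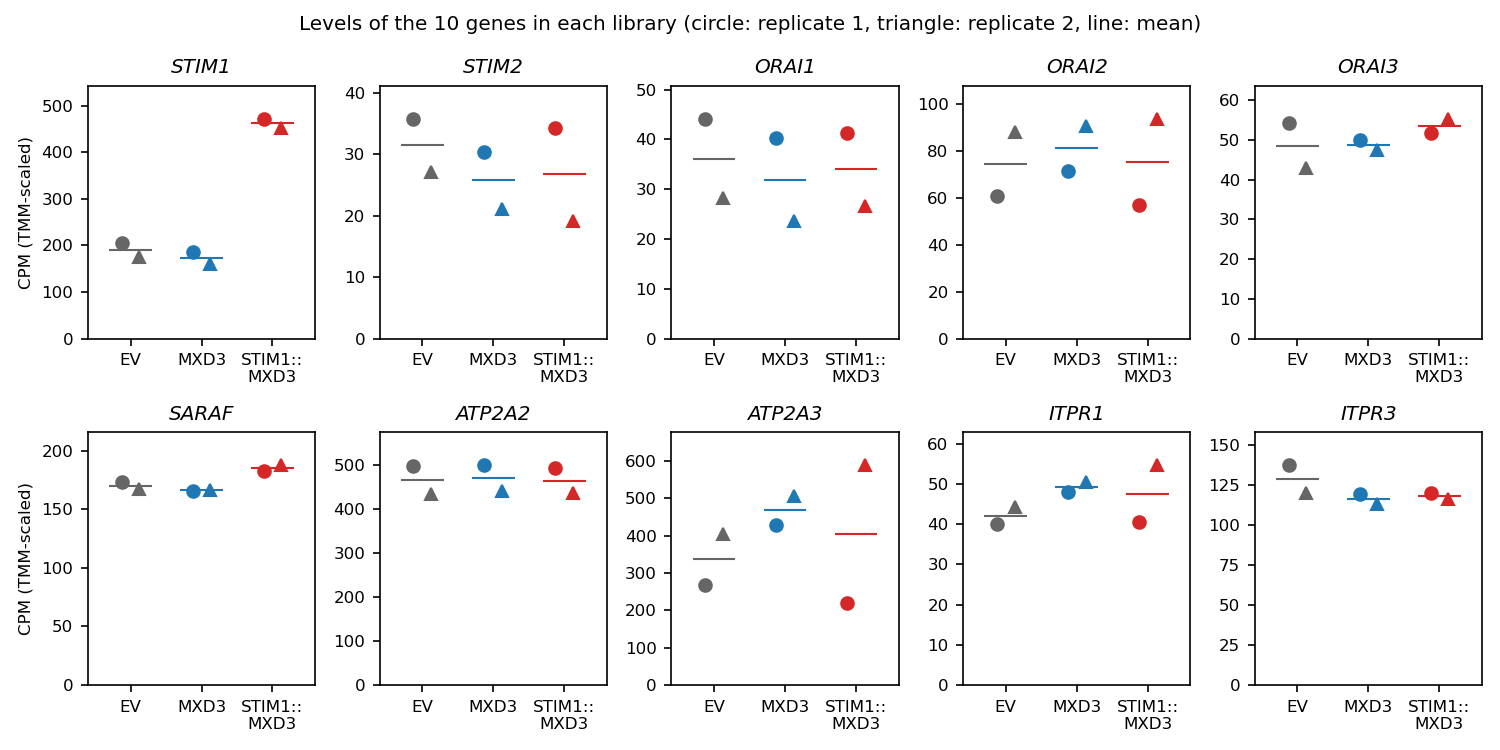
Levels of the 10 genes in CPM (vertical axes, each from 0) in EV, MXD3 and STIM1::MXD3, with circles for replicate 1, triangles for replicate 2 and lines for the mean of 2. STIM1 separates the fusion from the other groups, at 453 and 471 CPM against 159 to 205 CPM. In STIM1, STIM2, ORAI1, ATP2A2 and ITPR3 every circle is above the triangle of its group, and in ORAI2, ATP2A3 and ITPR1 every circle is below it.

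The members as a whole were counted in each comparison beside all genes tested. Against EV, STIM1::MXD3 gave 0 of 10 members past the threshold in edgeR, where 0.00648% of all genes passed (MXD3 alone). At an unadjusted p under 0.05 it was 1 of 10 (STIM1), against 0.953% of all genes. With the replicate block 1 of 10 passed the threshold, against 0.0194% of all genes. This gene, STIM1, was also the single member called by DESeq2 without the block (0.0194%) and with it (0.188%). At an unadjusted p under 0.05, the fit with the block held 2 of 10 members, STIM1 and STIM2, against 8.5% of all genes. STIM1 counts take in reads of the fusion transcript, so its call does not separate the plasmid from the cells' own gene. Libraries did not overlap in 2 of 10 members, STIM1 and SARAF, both higher, against 22% of all genes.

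MXD3 against EV gave 0 of 10 members in edgeR, where 0.00648% of all genes passed, and 0 of 10 at an unadjusted p under 0.05, against 1.86% of all genes. The count was also 0 with the block (0.292% of all genes), in DESeq2 (0.0194%) and in DESeq2 with the block (1.57%). At an unadjusted p under 0.05, the fit with the block held 3 of 10 members, STIM2, ATP2A3 and ITPR1, against 13.9% of all genes. Libraries did not overlap in 4 of 10 members, with ATP2A3 and ITPR1 higher and SARAF and ITPR3 lower, against 31% of all genes.

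STIM1::MXD3 against MXD3 gave 0 of 10 members in edgeR, where 0% of all genes passed, and 1 of 10 (STIM1) at an unadjusted p under 0.05, against 1.01% of all genes. With the block STIM1 was called and was the single gene of all those tested (0.00648%), as it was in DESeq2 (0.00648%), and DESeq2 with the block called it among 0.0713% of all genes. At an unadjusted p under 0.05, the fit with the block held 1 of 10 members, again STIM1, against 6.49% of all genes. Here too the STIM1 counts take in the fusion transcript. Libraries did not overlap in 3 of 10 members, STIM1, ORAI3 and SARAF, all higher with the fusion, against 21.1% of all genes. Comparisons against EV share the EV libraries, and those with the fusion share the fusion libraries.

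Without STIM1, the median log2 fold change of the other 9 genes was 0.01 for STIM1::MXD3 against EV, with a range from -0.23 to 0.26, beside a median of 0.01 over all genes tested. It was 0.01 for MXD3 against EV, with a range from -0.29 to 0.47, and 0.02 for STIM1::MXD3 against MXD3, with a range from -0.21 to 0.16, beside medians of 0.0011 and 0.01 over all genes. In these bulk samples, a change in some of the cells and a smaller change in RNA of all cells cannot be told apart.

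**Figure D3:**
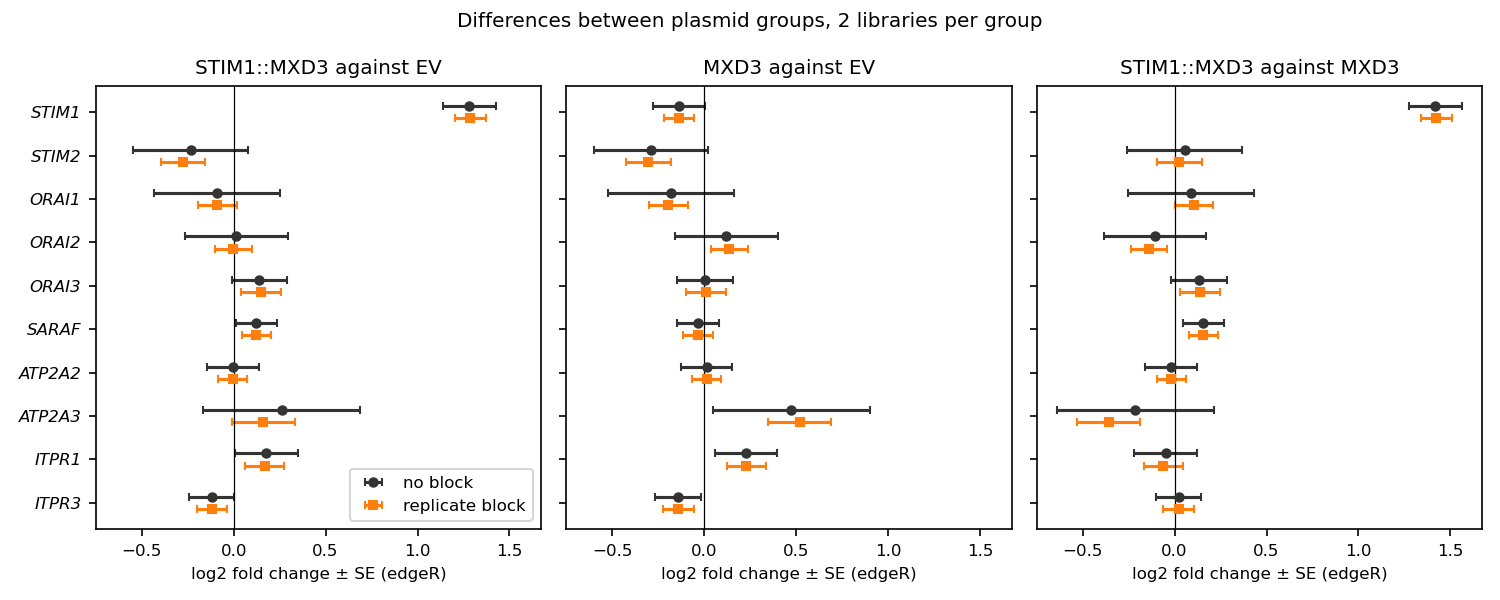
Log2 fold changes of the 10 genes with SE (horizontal axis) in the 3 comparisons, from edgeR without (black circles) and with (orange squares) the replicate block, 2 libraries per group. STIM1 stands at 1.28 and 1.42 in the comparisons that hold the fusion, the other members lie between -0.36 and 0.52, and the block shortens the error bars.

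Several members differed between the replicate numbers. Replicate 2 was compared with replicate 1 over the 3 groups in the edgeR fit with group and replicate as terms. Of the 10 members 5 passed the threshold, against 29.2% of all genes. ORAI2 and ATP2A3 were higher in replicate 2, by 0.53 ± 0.08 and 0.75 ± 0.14 on the log2 scale (adjusted p = 0.000213 and 0.00108). ORAI1, STIM2 and ATP2A2 were lower, at -0.69 ± 0.09, -0.59 ± 0.10 and -0.18 ± 0.06 (adjusted p = 4.78e-05, 0.000475 and 0.0440). Thus the pore gene ORAI1 and the pore gene ORAI2 differed in opposite directions between the replicate numbers, as did the pumps ATP2A2 and ATP2A3.

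These differences had the same sign in all 3 groups for the 5 genes, which were picked by the fit over the same 3 groups. STIM1, ITPR1 and ITPR3, which did not pass in that fit, also kept their sign in all 3 groups. For ORAI1 the differences were -0.65 in EV, -0.77 with MXD3 and -0.64 with STIM1::MXD3. For ATP2A3 they were 0.59, 0.24 and 1.42 in the same order, so its size varied between groups, which could not be tested with 1 library per number in each group. ATP2A2 no longer passed when any of the 6 libraries was left out, with adjusted p from 0.0799 to 0.230, nor with no filter on low counts or with DESeq2 size factors. ATP2A3 did not pass in DESeq2 with both terms (adjusted p = 0.0719). Across the fits without 1 library, 4 or 5 members passed. STIM1 differed by -0.17 ± 0.07 between replicate 2 and replicate 1 (adjusted p = 0.0727). It passed when the first or the second fusion library was left out (adjusted p = 0.0348 and 0.0418). What the replicate numbers stand for beyond separate transfections was not given in the sources used here.

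**Figure D4:**
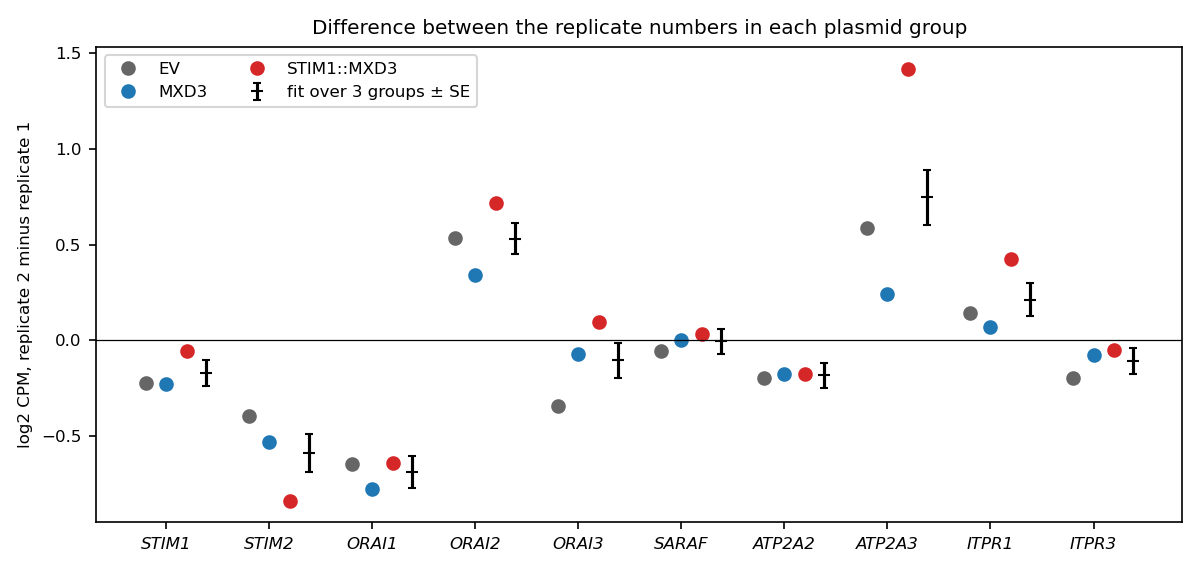
Difference in log2 CPM between replicate 2 and replicate 1 (vertical axis) for each gene, as 1 point per plasmid group, with the value fitted over the 3 groups and its SE in black. ORAI1 and STIM2 are below 0 and ORAI2 and ATP2A3 above 0 in all 3 groups, and ATP2A3 reaches 1.42 in the STIM1::MXD3 group.

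Levels of different genes were compared in EV as CPM per kilobase of the canonical transcript. SARAF (84.2 ± 2.18), ATP2A3 (71.8 ± 20.4) and ATP2A2 (56.1 ± 5.38 CPM per kilobase, SD, n = 2) were the highest, and neighbours in this order overlapped in their 2 libraries. STIM1 followed at 45.6 ± 4.92 CPM per kilobase, below ATP2A2 and above ORAI1 without overlap. ORAI1 (24.2 ± 7.54) and ORAI3 (22.0 ± 3.67) overlapped, and both lay above ITPR3 (14.2 ± 1.35) in each library. ORAI2 (6.95 ± 1.80) and STIM2 (6.29 ± 1.21) overlapped, and ITPR1 was the lowest at 4.25 ± 0.30 CPM per kilobase. Among the sensors, STIM1 was thus above STIM2 in every EV library, and among the ORAI genes ORAI2 was below the others per kilobase. The middle of the order depended on the length used. Per kilobase of the union of annotated exons, ORAI3 stood at 20.6 and 16.2 CPM, STIM1 at 17.0 and 14.6, ITPR3 at 13.9 and 12.2, and ORAI1 at 15.5 and 9.91, so that STIM1 overlapped both ORAI3 and ORAI1 and ORAI1 overlapped ITPR3. The per-length level of ORAI2 rests on a canonical transcript of 10747 bases, of which 762 are coding. In CPM, not divided by length, ORAI2 was instead the highest ORAI gene in each EV library. Its values there were 61.0 and 88.3 CPM, beside 54.3 and 42.9 for ORAI3 and 44.1 and 28.2 for ORAI1.

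Other genes of calcium handling were taken from a list of 105 genes in 8 groups, of which 88 were tested. In edgeR 0 of the 88 passed in any comparison. For the fusion against EV, MXD3 against EV and the fusion against MXD3, the numbers at an unadjusted p under 0.05 were 0, 1 and 0. The shares of all genes were 0.953%, 1.86% and 1.01%. With the block 0 passed in each comparison. At an unadjusted p under 0.05 the fit with the block held 7, 12 and 7 of the 88, where it held 8.5%, 13.9% and 6.49% of all genes, so the list lay near these shares. By direction, 0, 2 and 3 listed genes were higher and 7, 10 and 4 lower. Over all genes, 581, 1071 and 496 were higher and 730, 1078 and 505 lower. DESeq2 called 0, 0 and 0 without the block and 0, 3 and 0 of the 88 with it, the 3 standing beside 1.57% of all genes. The median log2 fold changes were -0.02, -0.04 and 0.04, beside 0.01, 0.0011 and 0.01 over all genes tested.

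The genes that DESeq2 with the block called lower with MXD3 than in EV were HSPA5, CALR and PPP3CC, named because they were the 3 calls of that fit in the list. HSPA5, the ER chaperone BiP, which also binds calcium, stood at 2559 and 2246 CPM in EV, 1953 and 1618 CPM with MXD3, and 2422 and 1668 CPM with STIM1::MXD3. Its log2 fold change of MXD3 against EV was -0.43 ± 0.20 in edgeR (adjusted p = 0.999, 0.0526 with the block and 0.00269 in DESeq2 with the block). CALR, the calcium-binding chaperone calreticulin, stood at 1414 and 1364 CPM in EV, 1069 and 1094 CPM with MXD3, and 1332 and 1039 CPM with STIM1::MXD3. Both MXD3 libraries of HSPA5 and CALR lay below both EV libraries. PPP3CC, a catalytic subunit of calcineurin, stood at 45.7 and 30.7 CPM in EV and 33.4 and 21.2 CPM with MXD3, and its groups overlapped.

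By group, 10 tested genes of ER calcium buffering and folding had a median log2 fold change of -0.12 for MXD3 against EV, with 8 of the 10 below 0. For STIM1::MXD3 against EV it was -0.03, again with 8 below 0. In STIM1::MXD3 against MXD3 their median was 0.08, with 9 of the 10 above 0. The 11 genes of mitochondrial calcium uptake had medians of -0.18 and -0.04 against EV with MXD3 and the fusion, with 9 and 8 below 0, and of 0.11 for the fusion against MXD3, with 10 above 0. Of all 15431 genes tested, 7689 were below 0 for MXD3 against EV and 7385 for the fusion against EV, and 8032 were above 0 for the fusion against MXD3. These comparisons share libraries. For MXD3 against EV, the fusion against EV and the fusion against MXD3, the medians were -0.01, -0.04 and -0.05 for 13 regulators of STIM and ORAI. They were 0.11, -0.0062 and -0.06 for 18 genes of calmodulin, calcineurin and NFAT. Other plasma membrane calcium channels (10 genes) had -0.01, 0.03 and -0.0028, and other release channels (9) 0.08, 0.01 and 0.05. Pumps and exchangers (7) had -0.06, -0.03 and 0.04, and phospholipase C and receptors (10) -0.04, -0.03 and -0.0049. No gene of any group passed in edgeR, with or without the block.

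The largest differences among listed genes with at least 5 CPM were small and did not pass in edgeR. For STIM1::MXD3 against EV they were SLC24A1, a sodium, potassium and calcium exchanger (0.40 ± 0.49), NFAT5 (-0.30 ± 0.26) and TRPM4, a calcium-activated cation channel (-0.30 ± 0.15). TRPM4 stood at 40.2 and 40.3 CPM in EV, 39.9 and 32.0 CPM with MXD3, and 33.3 and 32.1 CPM with STIM1::MXD3, so its fusion libraries lay below EV. For MXD3 against EV they were PPP3CC (-0.48 ± 0.41), SLC24A1 (0.46 ± 0.49) and HSPA5. For STIM1::MXD3 against MXD3 they were NFATC2 (-0.31 ± 0.21), PPP3CC (0.28 ± 0.41) and PLCG2 (0.25 ± 0.17), a phospholipase C that makes inositol trisphosphate.

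Between the replicate numbers, 23 of the 88 listed genes passed, against 29.2% of all genes tested, with 5 higher and 18 lower in replicate 2. Lower were PPP3R1, the regulatory subunit of calcineurin (-0.63 ± 0.08, adjusted p = 4.66e-05), PPP3CC (-0.79 ± 0.11) and MCU, the pore of the mitochondrial uniporter (-0.62 ± 0.09). SLC24A1 was higher (0.94 ± 0.16). These were named after their values were seen, as the largest of the 23.

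Promoter windows were searched for the E-box CACGTG, the site of MAX heterodimers, which reads the same on both strands. Windows of 300 bases, 250 before and 50 after an annotated start, came from RefSeq (GRCh38.p14), with 11 windows for 7 of the members. ORAI1, SARAF and ATP2A3 had no window and were not searched. STIM1 and ATP2A2 had more than 1 window each, and some of those of STIM1 overlap. A single window, 1 of 11, held the E-box, that of ORAI2, 116 bases before the start (window chr7:102433325-102433624, plus strand), beside 7.26% of 35116 windows of all genes.
ORAI2 E-box with flanks: gcgggtgggtCACGTGttggcggcgc
The capitals mark the E-box. ORAI2 did not pass in any plasmid comparison, with log2 fold changes against EV of 0.01 for the fusion and 0.12 for MXD3, and of -0.11 for the fusion against MXD3.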

How the data were processed

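Poly A RNA libraries of K562 cells (3 groups, 2 libraries each) were sequenced as read pairs. The authors deposited raw counts per gene under NCBI Gene identifiers, 1 table per library, made on hg19, and the submitters' processing notes name HISAT2 2.2.1 and featureCounts 2.0.1. The annotation, the use of strand and the counting of ends or pairs were not given in the sources used here. Low counts were more often even than odd, so counts divided by 2 were also tested. Of 25702 identifiers, 23696 were matched to a symbol (GENCODE and NCBI tables).

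Genes were kept with filterByExpr (15431), scaled by TMM and tested with edgeR 4.0.16 (R 4.3.3, quasi-likelihood F test, two-sided), with 1 coefficient per group over 6 libraries. P-values were adjusted by Benjamini-Hochberg over all genes, with a threshold of 0.05. The SE is the log2 fold change divided by the square root of F. Alternatives were the replicate number as a block, DESeq2 1.42.0 with and without it, its size factors, no filter, counts divided by 2, fits of the compared groups alone, and leaving out each library. Log2 CPM had a prior count of 2.

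Groups shared replicate numbers 1 and 2. Deviations of same-numbered libraries from group means correlated over all genes at 0.270 (EV and MXD3), 0.364 (EV and STIM1::MXD3) and 0.450 (MXD3 and STIM1::MXD3), each above 0.1, so the numbers were taken to pair the libraries. Over the 10 members these correlations were 0.900, 0.918 and 0.874 in the same order. No libraries agreed within sampling noise, with a chi-square per degree of freedom of 64.4 or more in each group.

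Lengths and exons came from GENCODE v44 lifted to GRCh37 and promoters from RefSeq. Named genes were the members, MXD3, 2 tested protein-coding genes on each side of STIM1, 3 listed calcium genes per comparison with the largest absolute log2 fold change at a mean of at least 5 CPM, and 5 genes most correlated with STIM1. The members and lists were chosen with earlier results of these data known.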

Additional observations from a re-analysis of the deposited data

How the results depend on the processing

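In STIM1::MXD3 against EV and against MXD3, the number of members called went from 0 to 1 (STIM1) with no filter on low counts, with the replicate block, in DESeq2 and in DESeq2 with the block. The STIM1 log2 fold changes were 1.28 and 1.42 with no filter (adjusted p = 0.00323 and 0.00181), 1.29 and 1.42 with the block, 1.27 and 1.41 in DESeq2, and 1.28 and 1.42 in DESeq2 with the block. The block changed no other call of a member. In MXD3 against EV the calls in the wider list went from 0 to 3 in DESeq2 with the block. The STIM1 gain per MXD3 gain was 14.3% with DESeq2 size factors (14.26) and with the same-numbered EV library (14.34), and 15.2% with the MXD3 libraries as baseline. ORAI2 in STIM1::MXD3 against EV turned to -0.0012 with the block and -0.0094 in DESeq2 with it, and the replicate difference of SARAF turned to 0.012 with no filter and 0.00016 with halved counts. In place of the canonical transcript, the union of exons, added after seeing the data, moved STIM1 from rank 4 to 5, ORAI1 from 5 to 7, ORAI3 from 6 to 4 and ITPR3 from 7 to 6 by level in EV.

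Leaving out each library in turn, no member was called in any plasmid comparison in edgeR, STIM1 in MXD3 against EV lay between -0.24 and -0.02, and 4 to 5 members passed between the replicate numbers. The STIM1 gain was 14.305% to 14.323% in the 2 fusion libraries. Log2 fold changes that crossed 0, none of them called, are given from lowest to highest. Against EV with the fusion they were STIM2 -0.71 to 0.12, ORAI1 -0.44 to 0.27, ORAI2 -0.40 to 0.33, ORAI3 -0.020 to 0.32, ATP2A2 -0.098 to 0.098, ATP2A3 -0.63 to 0.80 and ITPR1 -0.060 to 0.38. Against EV with MXD3 they were ORAI1 -0.60 to 0.18, ORAI2 -0.12 to 0.41, ORAI3 -0.15 to 0.19 and ATP2A2 -0.079 to 0.12. For the fusion against MXD3 they were STIM2 -0.43 to 0.41, ORAI1 -0.27 to 0.51, ORAI2 -0.52 to 0.21, ATP2A2 -0.11 to 0.058, ATP2A3 -1.10 to 0.33, ITPR1 -0.29 to 0.15 and ITPR3 -0.0064 to 0.048. Between the replicate numbers, in fits added after seeing the data, they were ORAI3 -0.21 to 0.011 and SARAF -0.025 to 0.017. The cause of these changes was not tested.

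With 2 libraries per group, differences within the SE of each member could not be resolved, and halved counts gave the same calls in the plasmid comparisons. The SE depended on the fit, and in edgeR the replicate block made it smaller for each member. For ORAI1 in STIM1::MXD3 against EV it was 0.34 without the block and 0.10 with it.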
